A study of Mus musculus with 5 samples.

Results

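The Myc, Max and Mxd network comprises the 10 genes Myc, Mycn, Mycl, Max, Mxd1, Mxd3, Mxd4, Mxi1, Mnt and Mga, which were chosen by name from 21938 protein-coding genes. For each of them, all Gfi1 and Lsd1 peaks within the gene body plus 10 kb on either side were read. The peaks came from MG (Myc/Gfi1) medulloblastoma tumors of the mouse. These tumors grow from Prominin1+ lineage-negative cerebellar stem cells of C57BL/6 mice, sorted 5 to 7 days after birth per the labels, infected with retroviruses that carry MycT58A and Gfi1, and transplanted into cerebella of NSG mice, which lack mature lymphocytes. Tumors were taken from adult hosts. All 4 libraries share both transgenes, and no tumor without them has a peak list here. Chromatin of tumor 39 and tumor 41 was immunoprecipitated with an antibody to Gfi1 and, separately, with one to Lsd1, which gave 2 libraries per factor. The input control was a pool of MGB (Myc/Gfi1b) tumors, and it has no peak list.

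Myc, Mycn and Mycl are transcription factors that bind E-boxes (CACGTG) as dimers with Max and raise transcription of genes for growth and ribosome production. The Mxd proteins, Mxi1 and Mnt also dimerize with Max at E-boxes, but bring in Sin3 corepressors with histone deacetylases, and Mga joins Max in a Polycomb-type repressor complex. Gfi1 is a zinc finger repressor that recognizes sites with the core AATC and recruits Lsd1, a histone demethylase, through its SNAG domain. MYC is the oncogene most often amplified in Group 3 medulloblastoma. The lists give positions and scores of binding and carry no expression, so that nothing here says whether a gene was repressed.

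The printed promoters are those of Max, the shared partner, of Mxi1, which had the highest mean score percentile of the network, and Mycn, which had the lowest. They run from 250 bases before to 30 bases after the RefSeq start site (build GRCm38.p6), 5′ to 3′ on the strand of the gene, with E-boxes and the Gfi1 core (AATC, or GATT where it lies on the other strand) in capitals. Max is at chr12:76962219-76962498 on the minus strand, Mxi1 at chr19:53310256-53310535 on the plus strand and Mycn at chr12:12941807-12942086 on the minus strand.
Max: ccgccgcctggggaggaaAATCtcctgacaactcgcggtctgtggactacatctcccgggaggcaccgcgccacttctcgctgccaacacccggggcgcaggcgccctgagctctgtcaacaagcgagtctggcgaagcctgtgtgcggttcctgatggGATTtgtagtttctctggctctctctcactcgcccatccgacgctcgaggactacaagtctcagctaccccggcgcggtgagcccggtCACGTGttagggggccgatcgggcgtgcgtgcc
Mxi1: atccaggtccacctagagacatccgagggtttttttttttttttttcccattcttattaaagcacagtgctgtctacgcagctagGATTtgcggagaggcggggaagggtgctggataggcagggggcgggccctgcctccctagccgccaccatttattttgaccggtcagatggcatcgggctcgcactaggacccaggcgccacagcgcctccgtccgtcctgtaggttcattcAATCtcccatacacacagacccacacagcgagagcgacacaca
Mycn: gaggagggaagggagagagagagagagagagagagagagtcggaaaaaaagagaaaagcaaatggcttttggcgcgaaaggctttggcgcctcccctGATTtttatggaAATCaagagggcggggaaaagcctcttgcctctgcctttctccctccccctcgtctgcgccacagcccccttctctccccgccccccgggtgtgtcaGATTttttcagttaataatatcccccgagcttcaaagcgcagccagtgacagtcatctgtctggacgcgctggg
The E-box of Max begins 3 bases before its start site, and neither of the other printed runs holds one. Max and Mxi1 each hold 2 Gfi1 cores, and Mycn holds 3.

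RefSeq windows from 250 bases before to 50 bases after a start were found for 9 of the 10 genes, in 11 windows, of which 3 are for Mxi1. An E-box was present in 3 of the 11, those of Max, Mxd4 and Mnt, against 7.15% of 32851 mouse promoter windows. The Gfi1 core, a motif of 4 letters that is common by its length, was present in 6 of the 11, against 73.1% of all windows. The longer form AAATCA, which contains the core, was in the Mycn window alone, where it occurred 2 times, against 14.0% of all windows. The windows of the network were rich in CpG, with 14 to 49 CpG per window and a median of 24, against a median of 7 in all windows. These matches are letters in a window and do not mark bound sites.

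Depth is not carried by the lists, which hold 25078 to 36836 peaks each, with 50.6% to 56.5% of the peaks within 1000 bp of a transcription start site (TSS). Scores were compared only by rank, as the percentile of a peak within its own list, where 100 is the highest. Many peaks share the score 3100 (12 to 805 per list) and so share 1 percentile. The longest lists were those of Gfi1 in tumor 39 (36836 peaks) and Lsd1 in tumor 41 (33213 peaks), and the shortest was that of Gfi1 in tumor 41. Per the study's reporting summary, the longest lists came from the libraries with the fewest mapped reads, and the part of depth in the percentiles was not tested.

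Nearly the whole network had peaks of both factors at its promoters. In all 4 libraries, 9 of the 10 genes had a peak within 1000 bp of one of their own annotated starts, against a background of 53.1% of protein-coding genes. The exception was Mycn. A start peak in the upper 20% of the score of every list was found at 6 genes, namely Max, Mxd3, Mxd4, Mxi1, Mnt and Mga, against a background of 19.9%. With the gene body and 10 kb on either side counted, 9 of the 10 genes again had a peak in each list, against 61.7% of all genes. No test was run, because a two-sided exact permutation test of 2 libraries against 2 cannot give a p below 0.333.

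As medians over the 10 genes, with an absent peak counted as 0, the strongest start peak stood at percentile 93.2 with Gfi1 and 93.3 with Lsd1, each a mean of the tumors. The medians over the 10 genes in each tumor differed by an SD of 1.71 with Gfi1 and 1.07 with Lsd1 (n = 2 tumors). Over all protein-coding genes the same medians were 48.4 with Gfi1 and 55.1 with Lsd1, and over the 11653 genes with a start peak in all 4 libraries they were 81.8 and 82.5. The part of CpG content in these percentiles was not tested. Ranked by score per base of peak width, the medians of the network were lower, at 84.7 with Gfi1 and 89.5 with Lsd1.

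**Figure D1:**
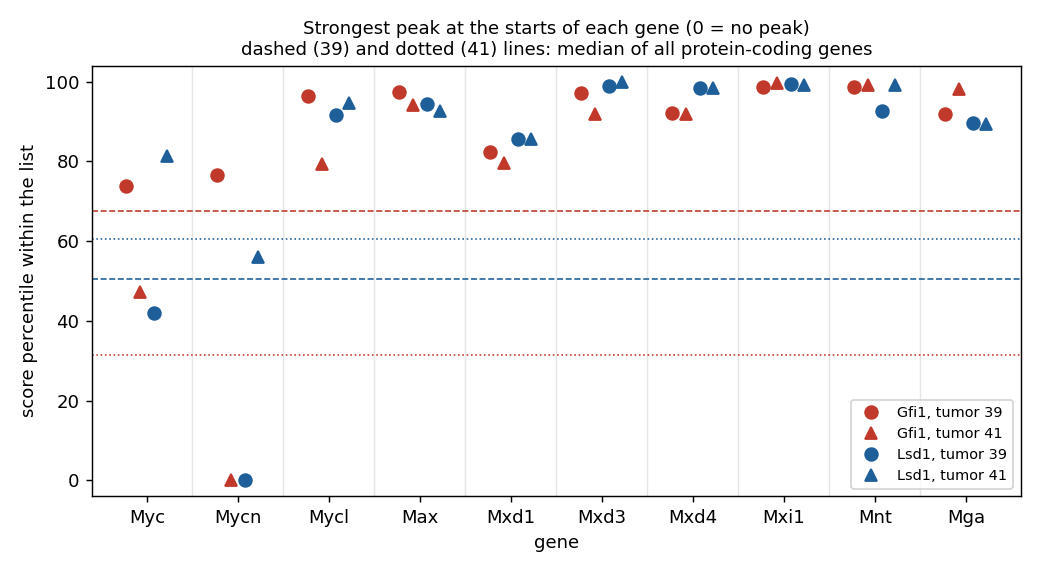
Score percentile within its list of the strongest peak at the starts of each gene, with circles for tumor 39, triangles for tumor 41, red for Gfi1 and blue for Lsd1. The horizontal lines are the medians of all protein-coding genes in each list. Myc and Mycn spread from 0 to 81.5, while the other 8 genes lie at 79.4 or above in every library.

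The order of the mean percentiles over the 4 libraries was Mxi1 (99.3), Mnt (97.4), Mxd3 (96.9), Mxd4 (95.2), Max (94.6), Mga (92.3), Mycl (90.6), Mxd1 (83.4), Myc (61.2) and Mycn (33.2). Each gene overlapped the next one in this order in its range over the 4 libraries, so that no neighbours were set apart. Mxi1 at 98.6 to 99.7 lay above the whole range of Mxd4, Max, Mga, Mycl, Mxd1, Myc and Mycn. Myc and Mycn held the last places.

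Myc encodes the oncoprotein that the retrovirus also supplies. Its gene (ENSMUSG00000022346, mm10 chr15:61985391-61990374, plus strand) had Gfi1 start peaks at percentiles 73.9 (tumor 39) and 47.2 (tumor 41), and Lsd1 start peaks at 42.1 and 81.5. Only the Lsd1 peak of tumor 41 was in the upper 20% of its list. The high values were thus Gfi1 in the one tumor and Lsd1 in the other, which are also the longest lists, and neither factor was separated from the other. The start peaks were broad, from 3081 to 4788 bp, and ran over all 6 annotated starts. Those of Gfi1 in tumor 39 and Lsd1 in tumor 41, the higher ones, also lay within 1000 bp of a start of Gm37947. Only these lists held a further, weak peak at that start, at percentiles 4.28 and 8.49. The part of this neighbour in the Myc values was not tested. Ranked by score per base, the values were 57.4 and 5.38 with Gfi1 and 1.83 and 68.3 with Lsd1 in tumors 39 and 41, so that the peaks of Gfi1 in tumor 41 and Lsd1 in tumor 39 were among the least dense of their lists.

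A second Myc peak, of 1034 to 1349 bp, lay over the last exon in all 4 libraries, at percentiles 66.6 and 37.0 with Gfi1 and 49.6 and 75.8 with Lsd1 in tumors 39 and 41. Its high and low libraries were the same as those of the start peak. It had no start of any gene within 1000 bp, and this position at an exon needs care, since a Myc coding sequence is also present in the proviruses of these cells. Whether that sequence is of mouse or human origin is not given in the sources used here, so that it is not known how far its reads would align to these exons. Reads of a mouse sequence could not be told apart from those of the gene. Introns, which a spliced coding sequence lacks, were therefore read separately.

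Exon 1, exon 2 and the intron of 1555 bp between them were covered at 100% in each of the 4 lists. Exon 3 was covered at 77.6% and 95.8% for Gfi1 and at 90.0% and 85.9% for Lsd1 in tumors 39 and 41, and intron 2 at 62.9% and 51.2% and at 56.2% and 73.8%. The only uncovered stretch between the peaks was a gap of 280 to 521 bp within intron 2, and the second peak reached 254 to 386 bp into that intron. Both introns thus held a peak in every library. Over the whole gene, exon bases were covered more than intron bases by 8.30 and 20.6 points for Gfi1 and by 16.0 and 6.24 points for Lsd1, a mean of 12.8 points with an SD of 6.67 over the 4 libraries.

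An excess of 6.24 points or more in every list was seen in 16.4% of all protein-coding genes with introns, whose median was 0. These genes were not matched for coverage. The median body coverage of all protein-coding genes was 3.01%, against 87.1% to 91.1% for Myc. The share therefore cannot show how usual such an excess is at a gene covered as fully as Myc. Mxd1 had an excess of 7.64 points on average with 6.17 to 8.39 in the 4 lists, but only 3.97% to 4.68% of its body was covered. Mycl had the largest mean excess of the network at 29.6 points, but it was negative in Lsd1 of tumor 39 at -11.6. With each peak trimmed to its central 200 bp, the mean for Myc was -1.46 points. In every list the center of the start peak lay in the first intron and that of the second peak in the last exon. The trimmed value follows from these positions alone, so it does not measure the excess. The part of proviral reads in the Myc peaks was not tested.

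Mycn, the Myc gene that drives growth of cerebellar granule neuron precursors, was the gene of the network with the fewest peaks (mm10 chr12:12936093-12941914, minus strand). It had a start peak in Gfi1 of tumor 39 at percentile 76.7 and in Lsd1 of tumor 41 at percentile 56.0, and no peak within 10 kb in the other 2 lists. The former was 4355 bp wide and the latter 2192 bp. Both tumors thus showed 1 factor without the other, and in opposite order. Exactly this pattern was shared by 613 genes, 2.79% of protein-coding genes, and these are again the longest lists.

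Mycl, the third Myc gene (mm10 chr4:122995652-123002485, plus strand), had start peaks at percentiles 96.4 and 79.4 with Gfi1 and 91.7 and 94.7 with Lsd1 in tumors 39 and 41. The Gfi1 peak of tumor 41 was the lowest and fell just short of the upper 20%. A second site toward its 3′ end, over the last coding exon, was present in all 4 libraries at lower percentiles, from 11.2 with Lsd1 in tumor 39 to 59.4 with Gfi1 in the same tumor. A site at the upstream edge of the window was read in tumor 39, at 58.5 with Gfi1 and 76.8 with Lsd1. The peaks of tumor 41 at the same place, at 58.1 and 55.4, ended before the edge and so were not counted.

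**Figure D2:**
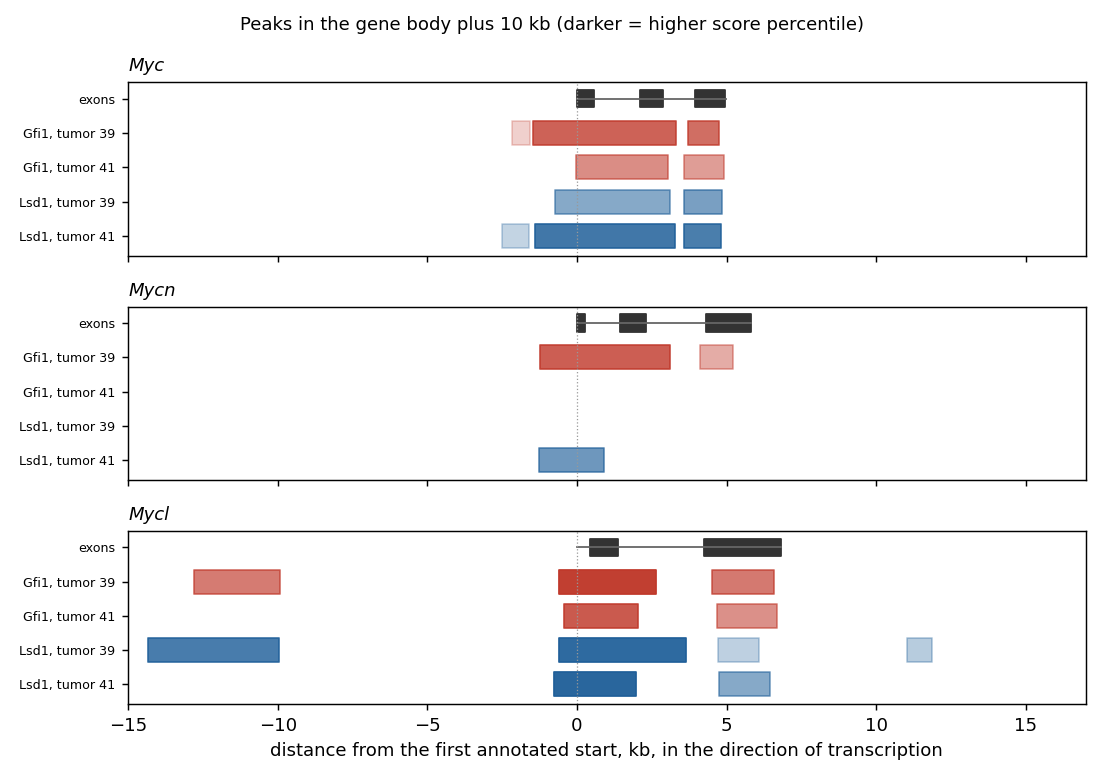
Peaks of each list in and around Myc, Mycn and Mycl, by distance in kb from the first annotated start in the direction of transcription. Black boxes are exons of 1 transcript, red bars Gfi1 peaks and blue bars Lsd1 peaks, and darker bars have a higher score percentile. Peaks that do not touch the gene body plus 10 kb are not drawn. Myc and Mycl carry 2 sites in every list, while Mycn has a peak in 2 of the 4 lists.

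Max, the shared partner of the other members, had its strongest peaks at its first starts, in an interval of 2098 bp shared by all 4 lists (mm10 chr12:76961156-76963253). The E-box and both Gfi1 cores of the promoter printed above lie in it. Its percentiles were 97.4 and 94.2 with Gfi1 and 94.3 and 92.5 with Lsd1 in tumors 39 and 41. Gfi1 was above Lsd1 in both tumors, by 3.09 and 1.71 points. A weaker site at an internal start, 6307 to 7748 bp into the gene, was found in all 4 libraries at percentiles 24.6 to 38.2. The strongest peaks were 2125 to 2736 bp wide, and the body of 24933 bp was covered at 8.83% to 10.6%.

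The Mxd genes, whose products can take the place of Myc on Max, had start peaks in all libraries. Mxd3, the Mxd gene of cells in S phase (mm10 chr13:55325168-55329823, minus strand), had percentiles of 97.1 and 91.8 with Gfi1 and 98.8 and 99.9 with Lsd1 in tumors 39 and 41. Mxd4 (mm10 chr5:34173883-34187720, minus strand) had 92.1 and 91.9 with Gfi1 and 98.3 and 98.4 with Lsd1. Both genes were thus higher for Lsd1 than for Gfi1 in each tumor, without overlap between the factors. Mxd1, the founding member (mm10 chr6:86647042-86669161, minus strand), had 82.3 and 79.7 with Gfi1 and 85.7 and 85.7 with Lsd1. It showed the same order at a lower level and held a single site, with 1 peak in each list, in the whole window.

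Mxd3 and Mxd4 have close neighbours. The start peaks of Rab24 and Prelid1 reached into the Mxd3 window at percentiles 83.5 to 96.5, and those of Haus3 and Poln into the Mxd4 window at 85.5 to 92.6 for the strongest peak of each list. In Mxd3 these joined the gene's own start peaks into 1 site of 12932 bp over all lists. A further Mxd3 site upstream, at 71.0 and 77.0 with Gfi1 and 71.3 and 75.6 with Lsd1, lay at no start. Within Mxd4, a second peak inside the gene was found at percentile 43.8 and 62.4 with Gfi1 and at 47.6 with Lsd1 in tumor 39, while in tumor 41 the Lsd1 start peak of 8392 bp ran over the same stretch.

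Mxi1, also known as Mxd2 (mm10 chr19:53310518-53375810, plus strand), had the highest mean percentile of the network over the 4 libraries. In single lists Mnt tied with it in Gfi1 of tumor 39 and Lsd1 of tumor 41, and Mxd3 was above it in the latter. The percentiles of Mxi1 were 98.6 and 99.7 with Gfi1 and 99.5 and 99.2 with Lsd1 in tumors 39 and 41, and those of Gfi1 in tumor 39 and Lsd1 in tumor 41 carry the shared score of 3100. All 4 peaks were 5871 to 6954 bp wide and shared 5609 bp (mm10 chr19:53310058-53315666), which holds the start of the promoter printed above. Of the 168 peaks in the windows of all members, 62 were at Mxi1, and 41 of these lay in introns away from any start. The 62 peaks formed 12 sites, 10 of which were found in all 4 libraries, a share for which no background was computed.

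Within Mxi1, a site at alternative starts, 16613 to 21030 bp past the first start, had percentiles of 85.5 and 77.1 with Gfi1 and 97.4 and 94.2 with Lsd1. The best of the 6 sites that lay away from all starts and occurred in every list stood at 62.5 and 73.9 with Gfi1 and 76.1 and 69.4 with Lsd1. The weakest of them ranged from 4.21 to 31.8. Exon minus intron coverage of Mxi1 was negative in every list, from -32.9 to -21.4 points, the opposite order to Myc.

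Mnt, a broadly expressed antagonist of Myc (mm10 chr11:74830920-74845725, plus strand), combined high scores with the broadest peaks. Its percentiles were 98.6 and 99.1 with Gfi1 and 92.5 and 99.2 with Lsd1 in tumors 39 and 41. The strongest start peaks were 10401 and 11988 bp wide for Gfi1 and 18887 and 6880 bp for Lsd1, between the 97.9 and 99.9 percentiles of width in their lists. The Lsd1 peak of tumor 39 covered the entire gene of 14806 bp. Ranked by score per base, Mnt was lower, at 73.7 and 63.6 with Gfi1 and 18.5 and 86.8 with Lsd1. The strongest start peaks of the 4 lists shared mm10 chr11:74828832-74834828. In Lsd1 of tumor 41 a further start peak followed from 74834902 to 74846234, at percentile 96.0. Coverage common to all 4 lists thus also occurred beyond the shared interval.

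Mnt also had 1 site upstream and 2 downstream of the gene that were found in all 4 libraries and lay at no start, the strongest at 68.7 and 49.1 with Gfi1 and 61.8 and 62.4 with Lsd1. Mga, the largest protein of the network, with both a T-box and a Max-binding domain (mm10 chr2:119897228-119969581, plus strand), was the contrast to Mnt and Mxi1. Its start peaks stood at 91.9 and 98.1 with Gfi1 and 89.7 and 89.4 with Lsd1 in tumors 39 and 41, so that Gfi1 was above Lsd1 in both tumors, by 2.16 and 8.70 points. They were 2290 to 2580 bp wide, and there was no other peak in its body of 72354 bp. The peaks just past its 3′ end formed a site at the start of Mapkbp1.

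**Figure D3:**
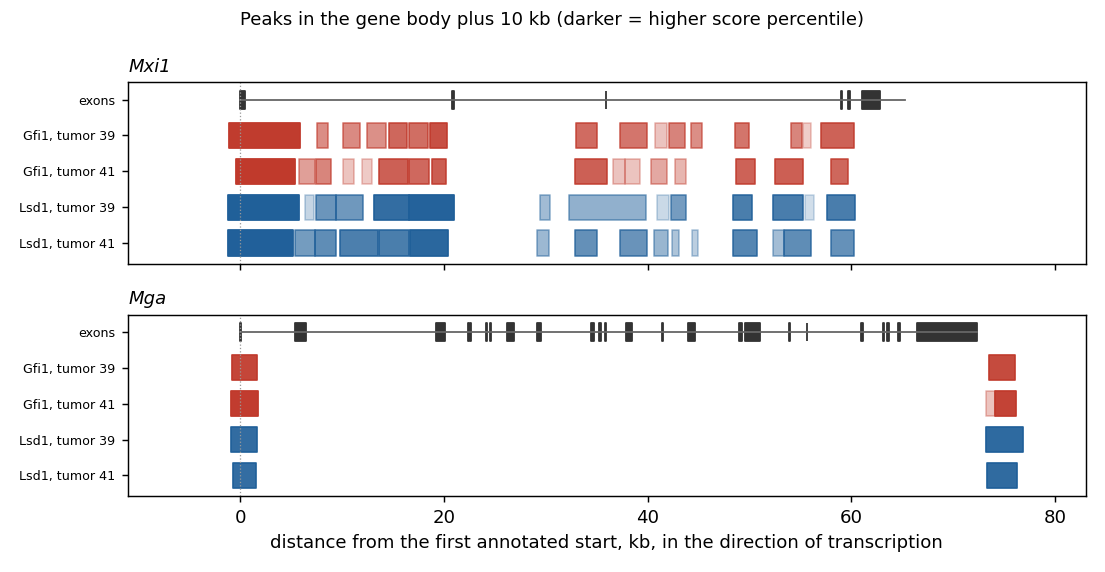
Peaks of each list in and around Mxi1 and Mga, genes of 65293 and 72354 bp, by distance in kb from the first annotated start. Black boxes are exons of 1 transcript, and darker bars have a higher score percentile. Mxi1 carries peaks along its first, middle and last part in every list, while Mga carries them at its start and past its end.

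The genes differed in how far the peaks extended. Peaks covered 85.5% to 99.6% of the body of Mxd3, 81.4% to 100% of Mnt and 87.1% to 91.1% of Myc in the 4 lists. Coverage was 54.0% to 73.4% for Mycl, 46.6% to 59.4% for Mxi1 and 29.9% to 54.3% for Mxd4. It was 8.83% to 10.6% for Max, above the median of 3.01% over all protein-coding genes. Mxd1, at 3.97% to 4.68%, and Mga, at 2.16% to 2.35%, lay nearer that median. Mycn ranged from 0% in 2 lists to 72.3% for Gfi1 in tumor 39. The longest of the 10 genes, Mxi1 and Mga, with 65293 and 72354 bp, lay apart in this order. The last coding exon held a peak in all 4 lists in Myc, Mycl, Mxd3 and Mnt, and in none in Max, Mxd1, Mxi1 and Mga. This is 4 of the 10 genes, against a background of 8.07% of protein-coding genes with more than 1 exon. Gene length was not adjusted for, and Mxd3, Myc and Mycl are only 4656 to 6834 bp long. At Mxd3 the last exon lay, in Lsd1 of tumor 41, under the peak at the starts of Rab24 and Prelid1.

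**Figure D4:**
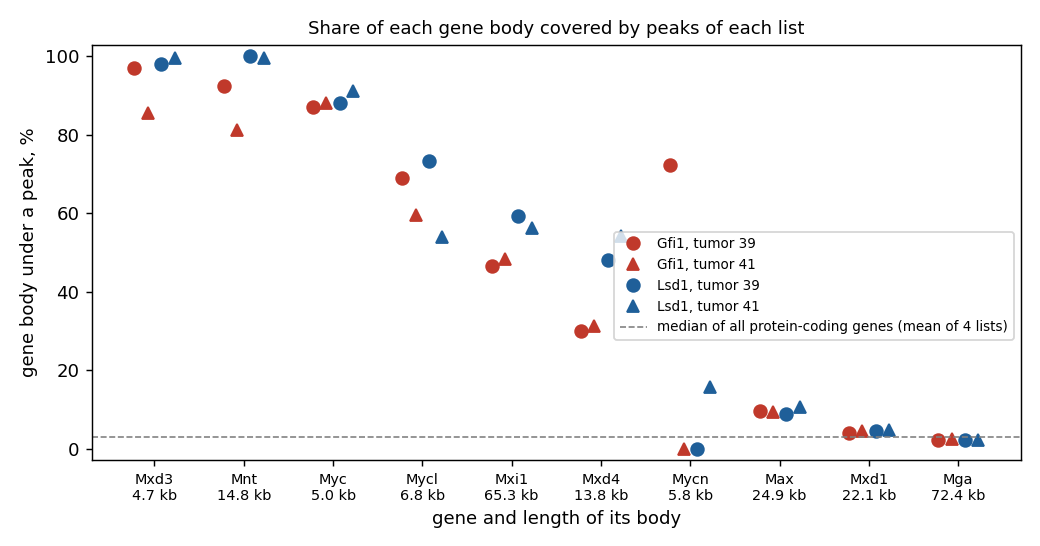
Percent of each gene body under peaks of each list, with genes in order of their mean and their length in kb below the name. Mxd3, Mnt and Myc lie above 81% in every list, and Max, Mxd1 and Mga lie at 10.6% or below.

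Away from the starts of any gene, 11 sites of the network were found in all 4 libraries, of which 6 were in Mxi1, 3 at Mnt, 1 at Myc and 1 at Mxd3. At least 1 such site was thus present at 4 of the 10 genes, against a background of 13.3% of protein-coding genes. The network windows held 39 sites altogether, and 27 of them were in all 4 libraries. The same share over the windows of all protein-coding genes was not computed, so it is not known whether this is usual. The count was 12 at 5 genes when the upstream Mycl site was followed past the window edge, and it fell to 4 sites with peaks trimmed to their central 200 bp. Longer genes have longer windows, and this was not adjusted for.

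Over the 10 genes as a whole, the difference between the factors was small beside its spread between the tumors. Each tumor holds 1 library per factor, so tumor and library cannot be told apart. The longest lists were again Gfi1 of tumor 39 and Lsd1 of tumor 41. Averaged over the 10 genes, Gfi1 minus Lsd1 was 11.2 points in tumor 39 and -11.5 points in tumor 41, a mean of -0.15 with an SD of 16.1 (n = 2 tumors). The medians over the genes were 2.63 and -6.26 points. Mycn, whose absent peaks count as 0, and Myc contributed most, and without them, a choice made after seeing the values, the means of the other 8 genes were 0.477 and -3.13 points. Gfi1 minus Lsd1 was 76.7 and -56.0 points at Mycn and 31.8 and -34.2 points at Myc, while at Mxi1 both differences were within 1 point of 0.

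Of the 9 genes with a start peak in all 4 libraries, Gfi1 was higher in tumor 39 and lower in tumor 41 at 3 (Myc, Mycl and Mnt), against 50.8% of all such protein-coding genes. It was under Lsd1 in both tumors at 3 (Mxd1, Mxd3 and Mxd4), against 19.8%, and over it in both at 2 (Max and Mga), against 20.1%. The change of sign was also seen over all these genes, where the median difference was 4.76 points in tumor 39 and -4.76 in tumor 41. Mxi1, also known as Mxd2, changed sign in the reverse order, at -0.892 points in tumor 39 and 0.574 in tumor 41. The lower Gfi1 score percentiles of Mxd1, Mxd3 and Mxd4 held in both tumors. Their means were -4.72 ± 1.87 for Mxd1, -4.94 ± 4.54 for Mxd3 and -6.34 ± 0.19 points for Mxd4 (SD of 2 tumor differences). Ranked by score per base, the order held in both tumors at Mxd3 alone. Gfi1 was then above Lsd1 at Mxd1 in tumor 39 (88.4 and 83.3) and at Mxd4 in tumor 41 (84.1 and 81.0). By that ranking Gfi1 was below Lsd1 in tumor 39 at Max (99.3 and 99.4) and Mga (92.8 and 94.6). No test was run on the differences between the factors, which rest on 2 tumors each.

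**Figure D5:**
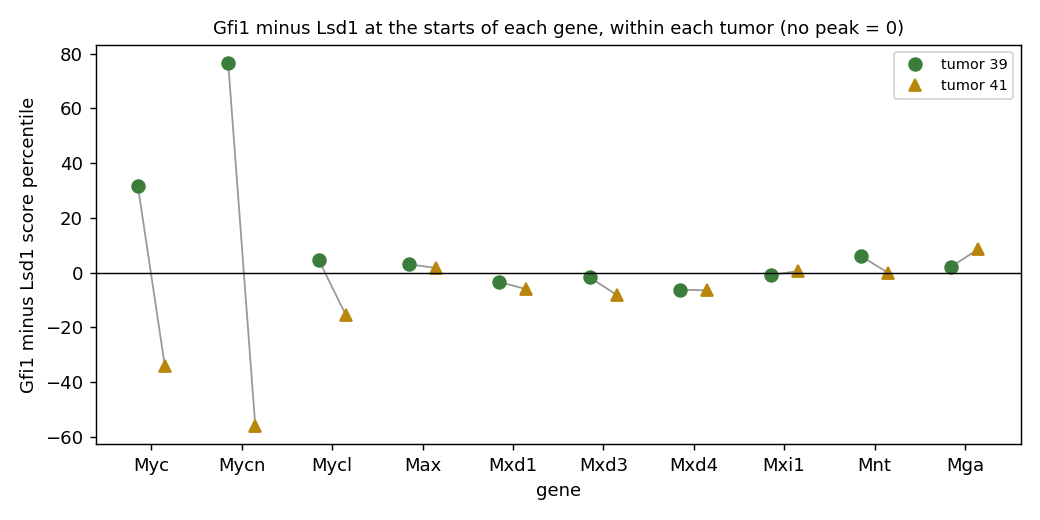
Gfi1 minus Lsd1 score percentile at the starts of each gene, with circles for tumor 39 and triangles for tumor 41, joined within a gene. The lines of Myc and Mycn cross 0 over the widest range, those of Mxd1, Mxd3 and Mxd4 stay below 0, and those of Max and Mga stay above it.

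Genes that act with the network were read in the same way from 5 lists, of which 59 genes were found in the annotation. A start peak in all 4 libraries was present at 58 of them, and 31 were in the upper 20% of each list. Over all protein-coding genes these shares were 53.1% and 19.9%. The 59 genes include Pvt1, which is noncoding. Such lists hold genes that most cells transcribe, so that their height is described only.

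Among corepressor partners of Mxd, Mnt and Mga, all 15 had start peaks in every list and 8 were in the upper 20% throughout, with a median percentile of 87.4 over the 4 libraries. The highest were Sin3a, the scaffold that Mxd proteins and Mnt recruit, at 99.4, and Cbx3, a heterochromatin protein of the Mga complex, at 99.2. Of 16 textbook Myc targets, all 16 had start peaks and 10 were in the upper 20%, with a median of 90.2. They were led by Cdk4, a kinase of the G1 phase, at 98.9 and Ncl, which encodes the nucleolar protein nucleolin, at 97.2.

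Of 11 genes of Myc turnover, all had start peaks and 6 were in the upper 20%, with a median of 88.0. Gsk3b, the kinase that phosphorylates Myc at the residue altered in MycT58A, stood at 99.2, and Fbxw7, the ubiquitin ligase subunit that reads this mark, at 98.0. Of 11 Myc coactivators, all had start peaks and 5 were in the upper 20%, with a median of 84.4, led by Trrap, a scaffold of acetyltransferase complexes, at 93.9 and Ruvbl2, an ATPase, at 92.9. The lowest list was that of partners and relatives, with a median of 75.6, where 5 of 6 genes had start peaks and 2 were in the upper 20%. Mlx, the Max-like partner of the parallel network, at 86.1 and Mlxip at 85.8 led it. Mycs had no start peak in any list, and Mycnos was not found under that symbol. The 6 genes include Pvt1, a long noncoding RNA gene and no dimer relative, at 65.6. The lowest place of this list rests on Pvt1. Without it the middle value would be that of Mlxipl, at 85.6. Against the median of 93.4 of the 10 network genes on the same scale, and 51.8 over all protein-coding genes, all 5 lists lay between.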

How the data were processed

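Gfi1 and Lsd1 ChIP-seq peaks of 2 MG tumors were analysed. Per the paper's methods and the submitters' processing notes, the authors aligned reads to mm10 with BWA 0.6.2 (also named are Picard and FastQC) and called peaks in each library with MACS at default parameters. The MACS version is not given in the sources used here. The lists deposited by the authors pair each peak's position with a score, which has no stated definition and a minimum of 50.0. They hold no counts of reads, and the precision of a single peak is therefore unknown. Positions are in mm10, the build GRCm38.

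Gene models were those of GENCODE release M21, where the authors used M9. A peak within 1000 bp of an annotated start counted as a start peak, and the score was ranked within its list, with mid-ranks for ties. A gene without a start peak counted as 0. Peaks of the 4 lists that shared 1 bp were joined into sites. Coverage is the percent of annotated bases under peaks. The pairing comes from the labels, in which same-numbered libraries name one tumor.

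The 10 genes, the 5 further lists and the alternatives were chosen with earlier results of these data known. All 10 genes were named, and of each further list the 2 highest and any with no start peak. Pvt1 and Mlxipl were named in addition, since Pvt1 is noncoding. No test was run. The alternatives varied the start window, the transcripts used, the score threshold, the ranking, the flank, the peak width, the exon set and the libraries kept. Promoter sequences are from RefSeq (GRCm38.p6). Input reads were not analysed here. The start-peak reading was tested on a single simulated list, where 200 of 200 planted genes were recovered in a run of 21951 genes. The planted genes were chosen to have no start of another protein-coding gene within 10 kb, so close neighbours were not tested. Python 3.11.15, numpy 2.4.6, pandas 2.3.3 and matplotlib 3.10.9 were used.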

Additional observations from a re-analysis of the deposited data

Results flagged for a closer look

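The Gfi1 minus Lsd1 difference in score percentile at the starts had opposite signs in tumors 39 and 41 at 5 of the 10 genes. It was 31.8 and -34.2 points at Myc, 76.7 and -56.0 points at Mycn, and 4.71 and -15.3 points at Mycl. At Mxi1 it was -0.892 and 0.574 points and at Mnt 6.08 and -0.0482 points, which are small differences among peaks near the top of their lists. The difference between the tumors was not tested, since each holds 1 library per factor. Among all protein-coding genes with start peaks in all 4 libraries, 50.8% had the order of Myc. Gfi1 was under Lsd1 in both tumors at 19.8% of them and over it in both at 20.1%. Opposite signs were thus common among these genes and are not particular to the network. Mxi1 had the reverse order to Myc, whose share was not computed. Mycn, with absent start peaks, is not among these genes.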

How the results depend on the processing

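The number of genes with a start peak in all 4 libraries stayed within 7 to 9 and the number in the upper share of score within 4 to 8 in every alternative run. With peaks trimmed to their central 200 bp, Mxd4 and Mnt left both counts, and the sites away from starts fell from 11 to 4. The Myc exon minus intron coverage was then -1.46 instead of 12.8 points, a value fixed by where the peak centers lie. With the upstream Mycl site followed past the window edge, an alternative chosen after seeing the data, the sites were 12. The number of such sites was 7 without a flank and 18 with a flank of 50 kb. The median Gfi1 percentile of 93.2 was 87.9 when ranked among start peaks only and 84.7 by score per base, and the Lsd1 median of 93.3 was 87.7 and 89.5. These rankings also moved single genes by more than the spread between tumors, in 12 and 14 of 20 values, while no other start window or transcript set did.

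Leaving out 1 library gave 9 genes with start peaks in each case, 6 to 8 genes in the upper 20%, 11 to 12 sites, a Gfi1 median of 91.8 to 94.3, an Lsd1 median of 92.1 to 93.6, and a Myc exon minus intron coverage of 10.2 to 15.0 points. The mean Gfi1 minus Lsd1 difference ranged from -6.34 without Gfi1 of tumor 39 to 6.04 without Gfi1 of tumor 41. With the tumor as replicate block it was -0.15 points with an SD of 16.1. This equals the unpaired mean by construction, since each tumor has both libraries. Without counts of reads, the error of a single peak is unknown.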
